A study of Mus musculus and Homo sapiens with 56 samples.

Results

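The canonical Wnt pathway was followed through 10 genes, chosen by name for their place in it: the co-receptors Lrp5 and Lrp6, β-catenin (Ctnnb1), the 4 TCF/LEF factors Tcf7, Tcf7l1, Tcf7l2 and Lef1, and the direct targets Axin2, Sp5 and Cdx1. The rule uses their names and no measured value, but the set was drawn up with earlier results of these data known. All 10 are among the 52459 genes of the count table, and all 10 passed the filter on low counts, which left 17778 genes. The cells are E14TG2a mouse embryonic stem (ES) cells, either wild type (WT) or D395A, a line with an alanine substitution in the catalytic centre of the m6A methyltransferase METTL3. Cells of both genotypes are described as grown on gelatin in N2B27 base medium with 2% KOSR, 1000 U/ml LIF, 1 μM of the MEK inhibitor PD0325901 and 3 μM of the GSK3β inhibitor CHIR99021. Every library analysed here therefore comes from cells kept with a drug that acts on the pathway itself, and cells without the drug were not analysed here. RNA-seq covered 2 libraries per genotype. The m6A immunoprecipitation of chromatin RNA gave 1 peak list per genotype, from 2 immunoprecipitated and 2 input libraries in WT and from 1 of each in D395A. The labels do not say whether D395A is a single clone or whether libraries came from separate cultures, so p-values measure only the spread between libraries.

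In canonical Wnt signalling a ligand bridges a Frizzled receptor and LRP5 or LRP6, which stops the destruction complex of Axin, APC, CK1 and GSK3 from marking β-catenin for degradation. β-catenin then enters the nucleus and joins TCF/LEF proteins on target genes. CHIR99021 reaches the same end by blocking GSK3 directly. In mouse ES cells TCF7L1 acts mainly as a repressor of pluripotency genes, and β-catenin relieves that repression, while TCF7 and LEF1 act mainly as activators. m6A, the methylated adenosine that METTL3 writes, lies most often in long internal exons and near stop codons of messenger RNA and is linked to faster decay of many transcripts.

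The RNA-seq libraries held 12743677 to 19246342 counts. Mettl3 had 36.2 and 35.5 CPM (counts relative to the library size after TMM scaling) in the WT libraries against 30.6 and 33.9 CPM in those of D395A, an edgeR adjusted p of 0.114, with 21.1% of its exonic bases shared with an opposite-strand gene. A codon change leaves the RNA countable, so these values do not check the genotype. The 8 ES cell markers summed to 3093 to 3110 CPM in WT and to 1479 to 1591 CPM in D395A, with every marker detected. Of the marker lists of other cell types, the 6 mesoderm genes summed to 32.6 and 36.8 CPM in the WT libraries against 5.05 and 5.71 CPM in those of D395A, and the 6 primitive endoderm genes to 14.1 and 14.6 CPM against 35.1 and 36.2 CPM. The 9 fibroblast genes summed to 29.89 and 29.96 CPM against 19.1 and 26.1 CPM, the 7 trophoblast genes to 81.4 and 82.3 CPM against 105 and 111 CPM, and the 6 neural genes to 64.5 and 71.3 CPM against 82.5 CPM in each D395A library. No marker of any list was at 0 in all libraries. In bulk RNA, fewer cells of a type and less RNA per cell cannot be told apart.

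The first comparison asked how the RNA of these genes differs between D395A and WT cells. Sp5, Lef1, Tcf7l1 and Lrp6 were higher in D395A, and Axin2, Cdx1, Tcf7, Ctnnb1 and Lrp5 were lower. The largest change was that of Sp5, 6.03-fold up, and the largest fall was that of Axin2, 1.68-fold. Tcf7l2 did not pass. The calls are from the edgeR quasi-likelihood test over all tested genes with Benjamini-Hochberg adjustment at 0.05, and fold changes are given as log2 D395A minus WT with the standard error (SE). These 9 calls among 10 genes stand beside a background of 71.1% of all tested genes called, 36.8% of them higher and 34.3% lower, each as a share of the genes tested. At a size of at least 2-fold only Sp5 and Lef1 were called, 2 of 10, both higher, beside 31.8% of all tested genes (20.0% higher and 11.9% lower). The libraries of the genotypes did not overlap in 9 of the 10 genes, beside 85.1% of all tested genes. The median log2 fold change of the 10 genes was -0.09, and that of all tested genes was 0.00288. A call by itself therefore does not set these genes apart in this comparison, and the sizes and directions are described by role below.

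**Figure D1:**
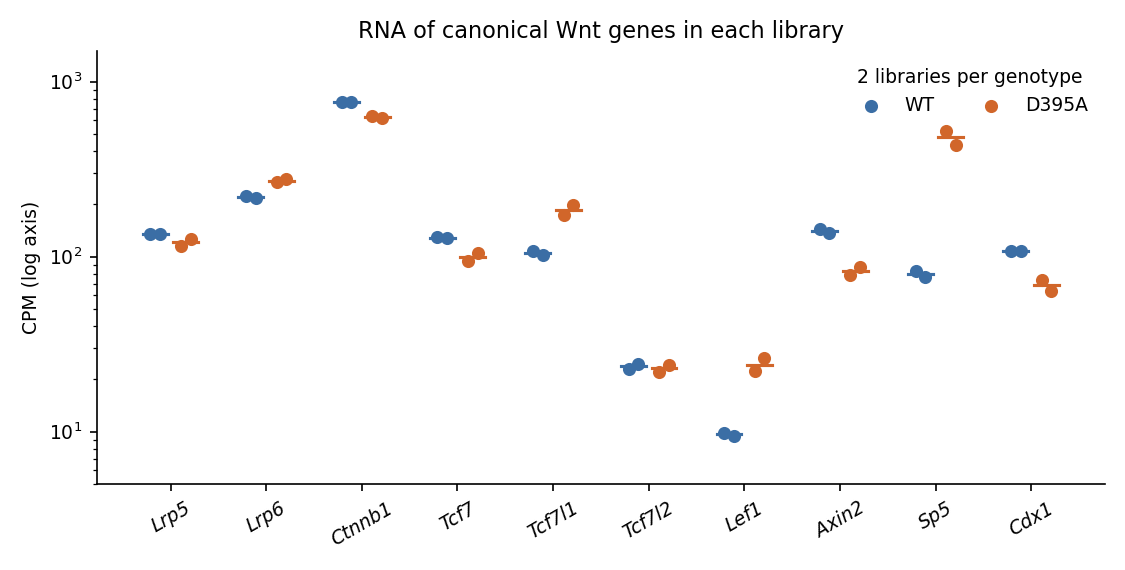
CPM of the 10 genes in each RNA-seq library on a log axis, with points for the 2 libraries of each genotype and a bar at their mean. Sp5 spans 76.4 to 83.0 CPM in the WT libraries against 437 to 523 CPM in those of D395A, while Axin2 and Cdx1 are lower in both D395A libraries than in either WT library.

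The co-receptors moved apart by small amounts. Lrp6 (chr6:134446476-134566965, minus strand; positions are mm10), a single-pass receptor whose phosphorylated tail recruits Axin, had 222 and 216 CPM in the WT libraries against 265 and 276 CPM in those of D395A. Both D395A libraries lay above both WT libraries, with a log2 fold change of 0.31 ± 0.06 (adjusted p = 0.00051, edgeR). Lrp5 (chr19:3584828-3686564, minus strand), its close relative with the same role, had 135 and 134 CPM in the WT libraries against 115 and 127 CPM in those of D395A. The groups did not overlap, but the gap between the nearest libraries, 134 and 127 CPM, was smaller than the gap between the D395A libraries. The log2 fold change of Lrp5 was -0.15 ± 0.06 with an adjusted p of 0.0447 in edgeR. That call was lost without D395A replicate 1, at a log2 fold change of -0.06 and an adjusted p of 0.399, and in 8 of 11 alternatives in all. The ratio of Lrp6 to Lrp5 counts within a library, which needs no scaling between libraries, was 1.64 and 1.61 in WT and 2.304 and 2.18 in D395A. Both genes are free of exonic overlap with opposite-strand genes.

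β-catenin RNA was the most abundant of the 10 per length in WT and was modestly lower in D395A. Ctnnb1 (chr9:120929216-120960507, plus strand), which encodes the protein that both carries the signal and links cadherins to the cytoskeleton, had 769 CPM in each WT library against 634 and 621 CPM in those of D395A. The log2 fold change was -0.29 ± 0.07 (adjusted p = 0.00167, edgeR), with no overlap between the groups. Ulk4 on the opposite strand covers 14.6% of its exonic bases and held 127 and 153 counts in WT and 518 and 522 in D395A. Across this comparison genes with such overlap lean towards higher values in D395A. Of all 17778 tested genes 6550 were higher and 6093 lower, and of the 12377 without opposite-strand overlap 3999 were higher and 4595 lower. Whether counting used strand is stated in none of the sources used here, and its part in the values of overlapped genes was not tested.

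Among the TCF/LEF factors the balance of RNA shifted from Tcf7 towards Tcf7l1. Tcf7l1 (chr6:72626378-72789254, minus strand), the repressor of the family in ES cells, had 107 and 102.6 CPM in the WT libraries against 173 and 196 CPM in those of D395A. Both D395A libraries were higher, with a log2 fold change of 0.82 ± 0.07 (1.76-fold, adjusted p = 1.04e-07, edgeR). Tcf7 (chr11:52252371-52283014, minus strand), an activator that is itself a Wnt target in many tissues, had 129 and 127 CPM in the WT libraries against 94.8 and 105 CPM in those of D395A. It was lower in both D395A libraries, with a log2 fold change of -0.35 ± 0.07 and an adjusted p of 0.000264 in edgeR. Lef1 (chr3:131110471-131224356, plus strand), the other activator, was the least abundant of the 10 per length in WT, with 9.86 and 9.50 CPM, against 22.1 and 26.3 CPM in those of D395A. The log2 fold change of 1.33 ± 0.12 (2.52-fold, adjusted p = 1.25e-07, edgeR) was the second largest of the 10. Tcf7l2 (chr19:55741810-55933654, plus strand), which can activate or repress, had 22.9 and 24.2 CPM in the WT libraries against 22.0 and 24.0 CPM in those of D395A. These libraries overlap, and the log2 fold change was -0.03 ± 0.09 with an adjusted p of 0.75 in edgeR.

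Expressed as a share of the summed TCF/LEF counts per kilobase of exon in the same library, Tcf7 made up 61.2% and 61.7% in WT and 42.4% and 41.9% in D395A. Tcf7l1 made up 34.1% and 33.4% in WT and 51.7% and 52.1% in D395A. The leading family member by RNA was thus Tcf7 in both WT libraries and Tcf7l1 in both D395A libraries. Lef1 made up 1.40% and 1.38% in WT and 2.95% and 3.13% in D395A, and Tcf7l2 was at 2.86% to 3.53% in all 4 libraries. Opposite-strand genes share 4.56% of the exonic bases of Tcf7l1 (Gm15401, with 5 and 11 counts in WT and 95 and 104 in D395A) and 13.7% of those of Lef1 (Gm43352, with 0 counts in both WT libraries and 22 and 35 in D395A). Tcf7l1 itself held 1434 and 1913 counts in WT and 2269 and 3686 in D395A, and Lef1 132 and 177 against 290 and 495. The counts given to the opposite-strand genes do not show how many reads from that strand were counted to Tcf7l1 and Lef1, and this was not tested. Tcf7 and Tcf7l2 have no such overlap.

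**Figure D2:**
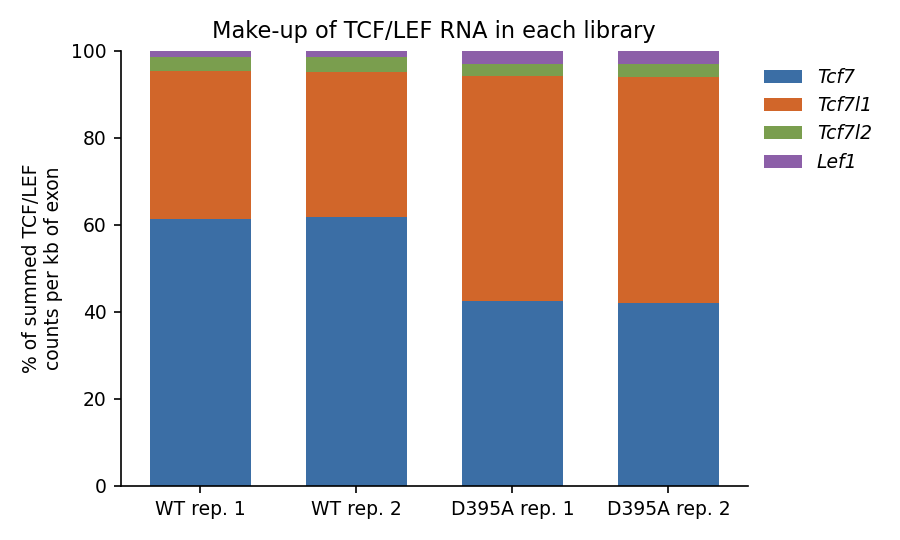
Share of each TCF/LEF gene in the summed counts per kilobase of exon of the 4 genes, 1 stacked bar per library. Tcf7 is the largest share in the WT libraries (61.2% and 61.7%) and Tcf7l1 the largest in the D395A libraries (51.7% and 52.1%).

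The direct targets did not move as a block. Sp5 (chr2:70474923-70477729, plus strand), a zinc finger factor induced by Wnt in ES cells and the primitive streak, had 83.0 and 76.4 CPM in the WT libraries against 523 and 437 CPM in those of D395A. The D395A libraries stood far above the WT libraries, with a log2 fold change of 2.59 ± 0.09 (adjusted p = 6.45e-12, edgeR). Axin2 (chr11:108920349-108950783, plus strand), a negative feedback component of the destruction complex and the most widely used Wnt reporter gene, went the other way, from 144 and 136 CPM in WT to 78.8 and 87.3 CPM in D395A. Its log2 fold change was -0.75 ± 0.07 (adjusted p = 1.79e-07, edgeR), and the groups did not overlap. Cdx1 (chr18:61018862-61036199, minus strand), a homeobox gene of the posterior embryo and gut, had 108 and 107 CPM in the WT libraries against 73.7 and 63.7 CPM in those of D395A. It was also lower in both D395A libraries, with a log2 fold change of -0.65 ± 0.07 (1.57-fold lower, adjusted p = 1.87e-06, edgeR). Sp5 and Cdx1 have no opposite-strand overlap and Axin2 has 3.8%.

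Ratios within a library show the same split without any scaling between libraries. There were 0.577 and 0.56 counts of Sp5 for each count of Axin2 in WT and 6.64 and 5.0 in D395A. Against Cdx1 the ratio of Sp5 was 0.77 and 0.713 in WT and 7.1 and 6.86 in D395A. Axin2 and Cdx1 kept closer to each other, at 1.33 and 1.27 counts of Axin2 per count of Cdx1 in WT and 1.07 and 1.37 in D395A, ranges that overlap. The summed mesoderm markers, which are low in D395A as given above, moved in the direction of Axin2 and Cdx1, and their part in these values was not tested.

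**Figure D3:**
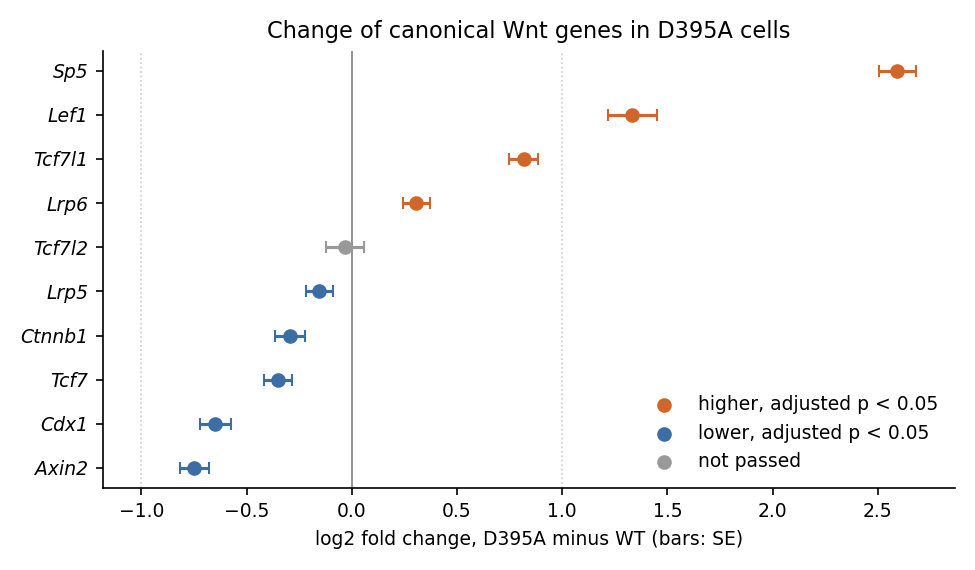
log2 fold change (D395A minus WT) of each of the 10 genes with its standard error from the edgeR fit, ordered by size, with dotted lines at a 2-fold change. Sp5 (2.59) and Lef1 (1.33) lie beyond the upper line, and Axin2 (-0.75) and Cdx1 (-0.65) are the lowest.

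Sequences upstream of Sp5, Lef1 and Axin2 show how the proximal promoters of these 3 genes differ. The 250 bases before the RefSeq transcript start (build GRCm38.p6, plus strand) are given for Sp5 and Lef1, the genes that rose at least 2-fold, and for Axin2, the gene that fell most. Capitals mark matches to the TCF/LEF core, searched on both strands as 4 words that differ in their last letters: CTTTGAT as word 1, CTTTGAA as word 2, CTTTGTT as word 3 and CTTTGTA as word 4.
Sp5, chr2:70474673-70474922: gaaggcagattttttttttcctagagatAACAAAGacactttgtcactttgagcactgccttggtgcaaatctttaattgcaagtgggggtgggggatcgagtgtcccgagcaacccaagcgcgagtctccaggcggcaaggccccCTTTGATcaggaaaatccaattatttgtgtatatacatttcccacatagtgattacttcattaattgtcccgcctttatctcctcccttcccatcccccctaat
Lef1, chr3:131110047-131110296: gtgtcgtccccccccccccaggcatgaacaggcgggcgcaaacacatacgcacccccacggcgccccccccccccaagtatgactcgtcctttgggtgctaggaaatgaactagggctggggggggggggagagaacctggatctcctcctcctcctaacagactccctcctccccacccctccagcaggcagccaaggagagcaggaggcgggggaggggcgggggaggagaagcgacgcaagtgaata
Axin2, chr11:108920099-108920348: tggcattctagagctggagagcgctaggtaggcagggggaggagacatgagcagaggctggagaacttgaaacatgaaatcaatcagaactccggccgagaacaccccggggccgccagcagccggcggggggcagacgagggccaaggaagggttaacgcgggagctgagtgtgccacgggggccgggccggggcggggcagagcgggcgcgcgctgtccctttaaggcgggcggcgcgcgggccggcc
Sp5 holds CTTTGAT starting 104 bases before the start and, on the reverse strand, word 3 starting 222 bases before it. The stretches shown for Lef1 and Axin2 hold none of the 4 words. RefSeq windows from 250 bases before to 50 after a start matched 7 of the 10 genes, with 13 windows. Beside Sp5, a match lay in 1 of the 4 Lef1 windows (CTTTGTA, reverse strand, 147 bases before a later start) and in 1 of the 2 Tcf7l2 windows (CTTTGTT, 14 bases before a later start). Of all 32851 promoter windows in the table, 16.9% hold at least 1 of the words and 3.73% hold CTTTGAT. A match is a string of letters and not a measured binding site, and distal elements lie outside these windows.

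Ordered by level per length, in CPM per kilobase of exon, the 10 genes ran in WT from Ctnnb1 at 148 through Cdx1 at 61.4, Tcf7 at 48.7, Sp5 at 37.9, Tcf7l1 at 26.7, Axin2 at 25.4, Lrp6 at 16.02 and Lrp5 at 13.8 down to Tcf7l2 at 2.70 and Lef1 at 1.10. No neighbours in that order had overlapping WT libraries, although Tcf7l1 (26.2 and 27.3) and Axin2 (24.8 and 26.1) were close. In D395A the order was headed by Sp5 at 229, above Ctnnb1 at 121, and followed by Tcf7l1 at 47.0, Cdx1 at 39.3, Tcf7 at 38.1, Lrp6 at 19.8, Axin2 at 15.1, Lrp5 at 12.4, Lef1 at 2.75 and Tcf7l2 at 2.63. The D395A libraries of Cdx1 and Tcf7 overlapped, as did those of Lef1 and Tcf7l2, so their order is not resolved. Axin2 thus stood above Lrp6 in WT and below it in D395A.

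The second comparison asked where m6A peaks of chromatin RNA lie in these genes in each genotype. In WT all 10 genes held a peak, 38 in all, beside 66.5% of all tested genes with a peak. In D395A 8 genes held a peak, 49 in all, beside 52.6% of tested genes, but most of these were weak. The WT list was kept at a q below 0.05 and the D395A list at a p below 0.05. At a q below 0.05 in both lists, 10 D395A peaks were left, in 4 genes (Lrp6, Ctnnb1, Tcf7l1 and Tcf7l2), beside 17.3% of tested genes. All 38 WT peaks stayed. As deposited, 8 genes held peaks in both lists (40.3% of tested genes), 2, Lrp5 and Tcf7, a WT peak alone (26.2%), 4 more WT than D395A peaks (40.4%) and 3 more D395A than WT peaks (29.0%). With the q limit, 4 genes held peaks in both lists, beside 12.9% of tested genes. With 1 list per genotype there is no replicate check and no test, and peak heights depend on depth and on the level of the RNA. Fold enrichment over input at the summit, as the authors' peak caller gave it, had a median of 4.67 (range 1.86 to 14.9) over the WT peaks and 2.45 (1.79 to 5.82) over the D395A peaks of the 10 genes. The medians of the whole lists were 6.31 and 2.66.

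WT peaks of the 10 genes mostly touched an exon by at least 1 bp, and D395A peaks mostly did not. The summit of a peak that touches an exon can lie outside it. Of the WT peaks 33 touched an exon and 5 lay in introns. Of the D395A peaks 7 touched an exon and 42 lay in introns. These counts use the lists as deposited, at unlike thresholds. At a q below 0.05, 10 D395A peaks were left. Those at exon 2 of Lrp6 and at the first exons of Tcf7l1 and Tcf7l2 touched an exon, and the others lay in introns. Over all peaks within tested genes 70.9% touched an exon in WT and 33.6% in D395A. A WT peak in the last exon was present in 8 of the 10 genes, in D395A in 2. The share of all tested genes with such a peak was not computed, so these counts do not set the 10 genes apart. Overlap with a D395A peak was found for 4 of the 38 WT peaks (in Sp5, Tcf7l1 and, with 2, Lrp6), near the share of 10.1% of all WT peaks. In turn 4 of the 49 D395A peaks overlapped a WT peak, beside 13.5% of all D395A peaks. A total of 6 genes (Lrp5, Tcf7, Lef1, Axin2, Sp5 and Cdx1) held a WT peak and no D395A peak at a q below 0.05, beside 53.6% of tested genes. Of these 6, 2 were higher and 4 lower in RNA in D395A. Among all 9531 tested genes with that peak pattern 41.1% were higher and 32.3% lower.

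**Figure D4:**
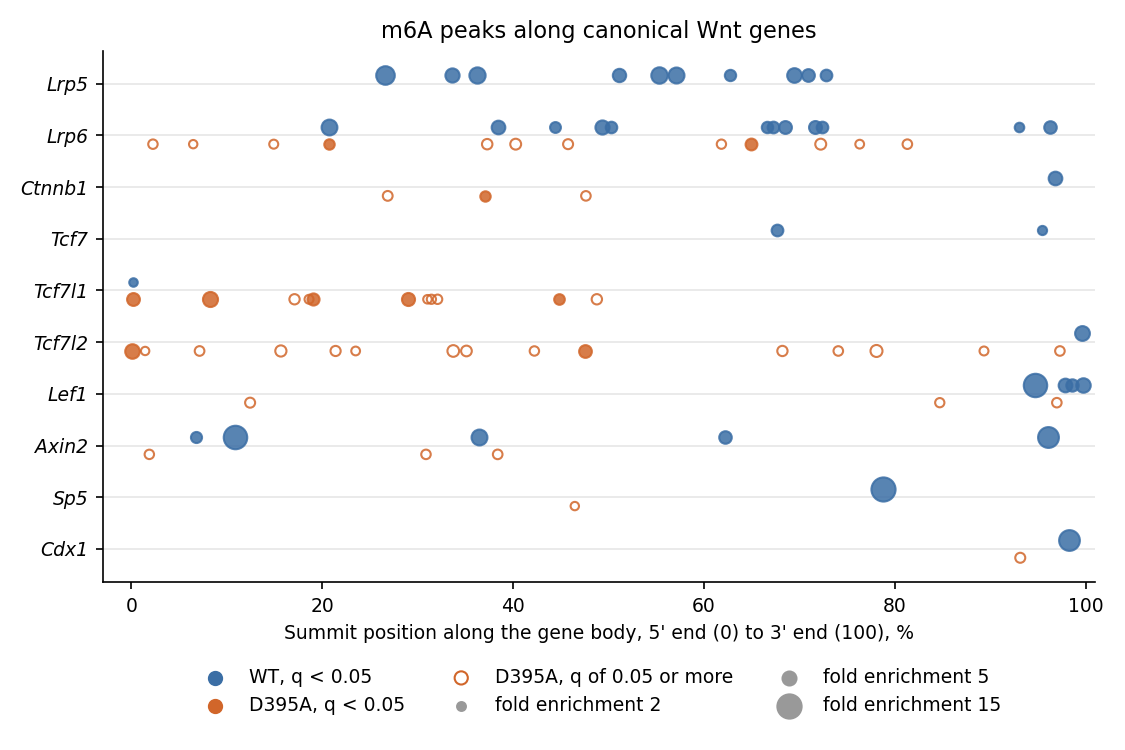
Summit position of each m6A peak along its gene body, from the 5′ end at 0 to the 3′ end at 100%, with WT peaks above and D395A peaks below the line of each gene. Point area follows fold enrichment, and open points are D395A peaks with a q of 0.05 or more. WT peaks sit at the 3′ end of most genes, with a row of internal peaks in Lrp5 and Lrp6, while D395A peaks with a q below 0.05 occur in Lrp6, Ctnnb1, Tcf7l1 and Tcf7l2.

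The 3 targets carried the most enriched exonic peaks of the set. The Sp5 peak chr2:70475898-70477674 covers 1777 bases of the last of its 2 exons with a 14.9-fold enrichment (−log10 q of 74.1), and its summit lies 597 bases before the 3′ end of the gene. Cdx1 has its WT peak in the last of 3 exons (chr18:61018897-61019762, 11.04-fold, −log10 q of 95.2), 293 bases before the 3′ end. Axin2 has 5 WT peaks. The highest of them covers 1177 bases at exon 5 of the 14 merged exons of the count table (chr11:108922906-108924082, 14.1-fold, −log10 q of 160, the smallest q of the set), and the next covers 1477 bases of the last exon (chr11:108948816-108950292, 11.1-fold). In D395A, Sp5 kept a peak of 312 bases within the WT interval at 1.79-fold, Cdx1 had a 2.56-fold peak next to the WT interval but not overlapping it, and Axin2 had 3 peaks of at most 2.37-fold, none overlapping a WT peak. None of these 5 D395A peaks reached a q of 0.05. The 3 targets therefore shared strong WT peaks without a D395A peak of that q while their RNA differed in direction.

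In WT the co-receptors held the most peaks of the 10 genes, most of them touching internal exons. Several of these had their summit outside the exon, such as the peak at exon 11 of Lrp5 (5.50-fold). Lrp6 had 12 WT peaks, more than 99.1% of tested genes. All 12 touched exons, from exon 2 of 22 (chr6:134541561-134542284, 6.4-fold) to the last exon (chr6:134450229-134451307, 4.04-fold). Lrp5 had 10 WT peaks, more than 98.4% of tested genes. Of these, 9 touched exons from exon 2 to exon 13 of 23 and none reached the last exon. The strongest by q was at exon 7 (chr19:3629663-3630705, 6.89-fold). In D395A the co-receptors parted. Lrp5, with a gene body of 102 kb, had no D395A peak, and Lrp6, with 120 kb, had 12, of which 10 lay in introns and 2 had a q below 0.05. Those 2 were an intronic peak of 3.58-fold and a 2.79-fold peak at exon 2 that overlaps the WT peak there.

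β-catenin and Tcf7l2 each had a single WT peak, in the last exon. That of Ctnnb1 (chr9:120959197-120960212, 4.77-fold) overlaps exonic bases of Ulk4 on the opposite strand, and the lists carry no strand. Ctnnb1 had 3 intronic D395A peaks, of which 1 had a q below 0.05 (2.77-fold). Tcf7l2 had its WT peak 668 bases before the 3′ end (chr19:55932732-55933160, 5.61-fold) and 15 D395A peaks over its 192 kb body, more than 98.3% of tested genes, of which 14 were intronic. Only 2 of the 15 had a q below 0.05, and the share of tested genes was counted from the list as deposited. The strongest of the 15 lay on the first exon (chr19:55741768-55742117, 5.44-fold, −log10 q of 3.77). Its start falls inside the Tcf7l2 promoter window, which ends at 55741859.

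Tcf7l1 was the gene of the set whose D395A peaks outdid its WT peak. WT had 1 peak, on the first exon (chr6:72788972-72789333), at 1.86-fold the least enriched WT peak of the 10 genes. D395A had 11 peaks, 10 of them intronic, of which 5 had a q below 0.05. The highest was intronic (chr6:72775652-72775980, 5.82-fold, −log10 q of 20.0), and the peak on the first exon (chr6:72788828-72789128, 4.23-fold) overlaps that of WT. With the q limit, Tcf7l1 and Tcf7l2 were the 2 genes of the set with more D395A than WT peaks, a pattern found in 6.01% of all tested genes. Their gene bodies, 163 and 192 kb, are the longest of the set. The share is over genes of all lengths, and the part of length was not tested. Tcf7, in contrast, had no D395A peak and 2 weak WT peaks of 2.165-fold in the last exon and 3.52-fold in an intron. Lef1 had 4 WT peaks, of which the highest (chr3:131217759-131218608, 14.1-fold) lay in an intron 6085 bases before the 3′ end and the others closer to that end, and 3 D395A peaks of at most 2.57-fold, none with a q below 0.05.

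The rest of the pathway was read from lists of 150 further genes, of which 129 were tested. In D395A 67 of them were higher and 39 lower, or 82.2% called beside the 71.1% of all genes, and their median log2 fold change was 0.28. Among the 100 without opposite-strand overlap 51 were higher and 30 lower, beside 3999 higher and 4595 lower of all 12377 tested genes without it. Several lists hold scarce genes, such as Wnt8a and Trabd2b, that passed the count filter through D395A alone. The filter fixed the direction of such genes, so the pooled counts and median are not free of it. At a filter of at least 1 CPM in 2 libraries, which such genes can still pass, 61 of 121 were higher and 39 lower. Their median log2 fold change was then 0.19. The lists share some genes, and each list's count below uses all its tested members. It stands beside the 36.8% of all tested genes higher and 34.3% lower.

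Receptor genes were mostly higher, 13 of 17, and 2 were lower, with a median log2 fold change of 0.86. Fzd2 had 10.3 and 9.07 CPM in the WT libraries against 162 and 155 CPM in those of D395A, and Fzd1 and Fzd3 rose 9.28-fold and 2.82-fold. The receptors that fell were Fzd5, from 360 ± 4.12 to 130 ± 9.38 CPM (mean ± SD, n = 2, with 17.8% opposite-strand overlap), and Fzd10, from 112 ± 4.76 to 45.9 ± 3.41 CPM. All of these encode Frizzled proteins, the receptors that bind Wnt ligands with LRP5 and LRP6. Fzd5 and Fzd10 had the highest CPM of the tested Frizzled genes in WT, followed by Fzd7 at 56.3 CPM. The count and median weigh each gene alike and do not describe the summed receptor RNA. Of 25 ligand and secretion genes 13 were tested. Of these 8 were higher and 3 lower, with a median log2 fold change of 1.42. Scarce genes such as Wnt8a (4 counts in each WT library, 66 and 112 in D395A) passed the count filter only through D395A. Wnt3a (14 and 31 counts in WT, 3 and 0 in D395A) passed only through WT. The filter fixed the direction of such genes, so this count and median are not a result about the ligands as a group. Wls, which carries Wnt proteins to the cell surface, rose from 37.2 ± 2.63 to 90.4 ± 1.35 CPM. Most ligand genes were scarce. Wnt8a had 0.299 and 0.215 CPM in the WT libraries against 5.02 and 5.95 CPM in those of D395A, and Wnt6 at 0.448 and 0.59 against 4.56 and 4.15 CPM. Porcn, which lipidates Wnt proteins, fell slightly, from 18.3 ± 0.524 to 15.4 ± 0.756 CPM, and Wnt11 fell 1.84-fold.

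Of 16 inhibitors outside or at the membrane 11 were higher and 3 lower, with a median log2 fold change of 0.97. Scarce inhibitor genes such as Trabd2b (1 and 2 counts in WT, 66 and 109 in D395A) passed the count filter only through D395A. Their direction was fixed by the filter, so this count and median are not a result about the inhibitors as a group. Sfrp1, a secreted Wnt binder, fell from 167 ± 10.8 to 54.4 ± 2.87 CPM, Sfrp4 fell 2.09-fold, and Rnf43, a ubiquitin ligase that removes Frizzled receptors, fell 3.31-fold. Sfrp2 (16.1% overlap) rose 4.31-fold, and Notum, an enzyme that strips the lipid from Wnt proteins (38.1% overlap), rose 2.04-fold. Trabd2b had 0.0747 and 0.107 CPM in the WT libraries against 5.02 and 5.79 CPM in those of D395A. Of 28 genes of Dishevelled and the destruction complex 12 were higher, 7 lower and 9 did not pass, with a median log2 fold change of 0.13. Their share of called genes, 67.9%, was below the 71.1% of all tested genes. Axin1, the constitutive scaffold, rose from 71.6 ± 4.64 to 110 ± 2.72 CPM, Frat2 rose 3.4-fold and Rnf146 (76.8% overlap) 1.81-fold. Amer1, a membrane anchor of APC, fell 2.08-fold, the Axin regulator Tnks fell from 387 ± 7.92 to 236 ± 12.9 CPM, and Btrc, the β-catenin ubiquitin ligase subunit, fell 1.54-fold. Axin1 and Axin2 thus went in opposite directions.

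Nuclear cofactors numbered 10 higher, 7 lower and 6 not passed of 23, or 73.9% called, near the share of all tested genes. The β-catenin coactivator genes Bcl9 and Bcl9l rose from 88.2 ± 4.13 to 166 ± 9.63 CPM and from 43.7 ± 0.785 to 108 ± 5.25 CPM, and the kinase gene Hipk2 rose 3.47-fold, while Cdc73, Hdac1 and Aes fell 1.7-fold, 1.59-fold and 1.48-fold. Of 24 other target genes 15 were higher, 7 lower and 2 did not pass. Among them Wnt8a passed the count filter only through D395A, and Wnt3a and T only through WT. The filter fixed the direction of such genes, so this count is not a result about the targets as a group. Tnfrsf19 rose 5.0-fold, T (Brachyury), the streak gene, fell from 18.9 and 14.2 CPM in WT to 0.228 and 0.159 CPM in D395A, and Fgf4 and Nr5a2 fell 4.44-fold and 1.49-fold. Like Sp5, Axin2 and Cdx1, the wider target list thus held changes in both directions. T is also a mesoderm marker of the list given above. Of 10 pluripotency genes known to be bound and held down by TCF7L1, 8 fell, beside 34.3% of all tested genes lower, and 1, Klf2, rose 1.25-fold. Tbx3 fell from 528 ± 11.02 to 25.5 ± 1.67 CPM, Tcl1 from 123 ± 1.3 to 4.47 ± 0.075 CPM and Lefty2 from 125 ± 5.26 to 6.88 ± 1.02 CPM. These genes are ES cell genes too, and the ES marker sum was lower in D395A as given above. The part of either in the other was not tested.

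**Figure D5:**
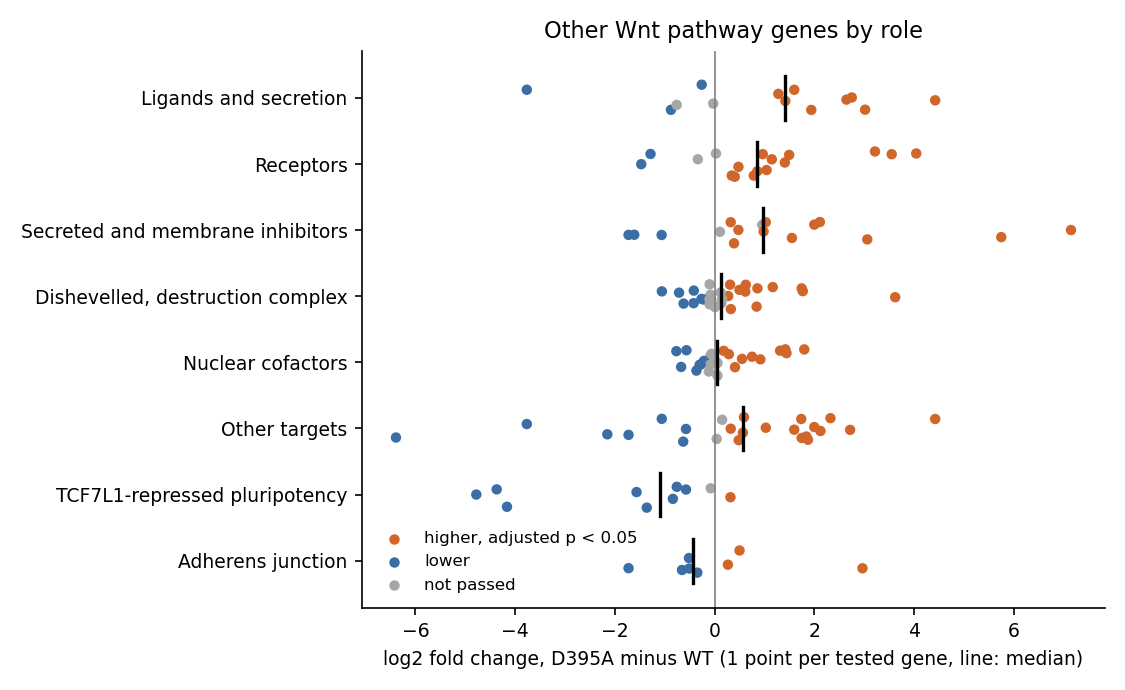
log2 fold change (D395A minus WT) of each tested gene of 8 Wnt pathway lists, with the list's median as a black line and colour for the edgeR call. The medians of ligands (1.42), inhibitors (0.97) and receptors (0.86) lie above 0, that of the TCF7L1-repressed pluripotency genes lies at -1.10, and the destruction complex (0.13) and nuclear cofactors (0.06) lie near 0. Some scarce ligand and inhibitor genes, such as Wnt8a and Trabd2b, passed the count filter through D395A alone. The medians of those lists are therefore not a result about the groups.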

How the data were processed

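The RNA-seq read counts (2 libraries per genotype) and the WT and D395A mouse m6A peak lists were used, 10 of the 56 samples. Groups came from the labels, and 1 count column whose name differs in 1 character from D395A was taken as D395A replicate 1. The 10 genes and the lists of other pathway genes were chosen with earlier results of these data known.

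The deposited table holds raw read counts per gene. Per the submitters' processing notes, the tools were edgeR 3.22.5, MACS2 2.1.1, SAMtools 1.7, Picard 2.16.0, featureCounts 1.6.3, Bowtie2 2.3.4.1, HISAT2 2.1.0, Trimmomatic 0.33.0 and FastQC, and the builds mm10 and hg38. Their roles and the strand setting of the counting are stated in none of the sources used here. Peak lists are deposited in narrowPeak layout with fold enrichment (a ratio), −log10 p, −log10 q and an integer score for each peak. The deposited score equals 10 times the −log10 q in WT and 10 times the −log10 p in D395A and was not used. 2 unlabelled columns of the WT list were not used.

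Counts were compared in edgeR 4.0.16 (R 4.3.3) with filterByExpr, TMM (factors 0.961, 0.97, 1.03 and 1.04), a quasi-likelihood test and Benjamini-Hochberg adjustment. The SE is the log2 fold change divided by the root of the F statistic. The common dispersion was 0.003, and the code was checked on simulated counts. Peaks were assigned to gene bodies of the count table at 1 bp of overlap, with exons merged over transcripts. Beside the 10 genes, named genes were, per list and direction, up to 3 called genes with the smallest adjusted p, a mean of at least 1 CPM and no overlap between genotypes; the text gives most of them. Promoter sequences are from RefSeq (GRCm38.p6); Lrp5, Lrp6 and Cdx1 had no match. Alternatives were upper quartile scaling, DESeq2 1.42.0, limma-voom (limma 3.58.1), other count filters, a replicate block, each library left out, exclusion of overlapped genes, and other peak thresholds and overlaps.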

Additional observations from a re-analysis of the deposited data

How the results depend on the processing

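Sp5, Lef1, Tcf7l1, Lrp6, Ctnnb1, Tcf7, Axin2 and Cdx1 kept their direction and their call in every alternative in which they were fitted. Leaving out each library in turn gave log2 fold changes of 2.49 to 2.72 for Sp5, -0.83 to -0.65 for Axin2, 1.19 to 1.48 for Lef1 and -0.72 to -0.54 for Cdx1; a lone library was assumed to vary like the other group. Lrp5 stayed negative (-0.23 to -0.06) and lost its call in 8 of 11 alternatives. Tcf7l2 was never called and changed sign without overlapped genes (0.0178) and without D395A replicate 1 (0.0533; range with a library left out -0.103 to 0.0533). Replicate numbers are not stated to pair the samples, and the deviations of same-numbered libraries correlated at 0.0337 over genes. The replicate block gave 12895 calls against 12643, with 9 of the 10 genes and 106 other pathway genes called in each fit. The median log2 fold change of all genes was 0.02 with upper quartile scaling and 0.171 with DESeq2, which was run on 31364 genes without the filter. Without genes that have opposite-strand overlap, 6 of the 10 genes were left, of which 4 were called and 1 at least 2-fold. Of these 6, 5 were called with all genes in the fit, and Lrp5 lost its call (adjusted p = 0.169, edgeR). Of the 49 D395A peaks 10 were left at a q below 0.05, 9 at a q below 0.01 and 7 with overlap of an exon required. Genes with a D395A peak went from 8 to 4 at a q below 0.05 and to 3 at a q below 0.01. WT peaks shared with D395A went from 4 to 2 at a q below 0.05 and to 1 when 50% of the WT peak had to be covered. The D395A list rests on 1 immunoprecipitate, and its sequencing depth is stated in none of the sources used here.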

Other observations

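β-catenin also works at adherens junctions, where it ties cadherins to the actin cytoskeleton through α-catenin. Of 8 tested junction genes 3 were higher and 5 lower in D395A (edgeR adjusted p below 0.05), beside 36.8% of all tested genes higher and 34.3% lower. Cdh1 (E-cadherin), the main cadherin of ES cells, fell from 1072 ± 0.57 to 681 ± 24.6 CPM (mean ± SD, n = 2 libraries), and Jup (γ-catenin), the closest relative of β-catenin, fell from 274 ± 17.6 to 82.3 ± 8.65 CPM. Vcl, with 25.5% of its exonic bases shared with an opposite-strand gene, fell 1.43-fold. Cdh2 (N-cadherin) rose from 4.98 ± 0.39 to 39.2 ± 0.184 CPM, and Afdn and Nectin2 rose 1.41-fold and 1.2-fold. The fall of Ctnnb1 itself, 1.23-fold, was smaller than that of Cdh1, 1.57-fold, or Jup, 3.31-fold; these differences were not tested.

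Across the 129 other tested pathway genes 102 held a WT m6A peak and 78 a D395A peak, or 79.1% and 60.5%, beside 66.5% and 52.6% of all tested genes. These counts use the lists as deposited, with WT kept at a q and D395A at a p below 0.05. At a q below 0.05 the D395A share of all tested genes was 17.3%, and the pathway genes were not counted at that limit. The part of gene length was not tested. The lists differed: a D395A peak was found in 8 of 24 other target genes, in 19 of 23 nuclear cofactors and in 8 of 8 adherens junction genes, while a WT peak was found in 19, 17 and 6 of them.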
